A study of Mus musculus with 4 samples.

Results

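Skeletal muscle transcripts were followed tumor by tumor in 4 tumors of autophagy-defective mouse kidney cells. The set was a list of 35 genes of the contractile apparatus, calcium handling and energy supply of skeletal muscle. It was measured through probe sets annotated to exactly 1 gene symbol, with 1 value per gene from the probe set of highest mean signal. Of the 35 genes, 33 were measured, by 51 probe sets, among 12393 genes on the array. Neb and Mybpc2 were not analysed here.

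All tumors came from iBMK cells, an epithelial line immortalized from baby mouse kidney, injected under the skin of nude (NCR Nu/Nu) mice. The line was ATG5-/- and carried Bcl-2. In 2 tumors it also expressed the green fluorescent protein EGFP alone, and in 2 it expressed p62-EGFP, a fusion of EGFP with the autophagy adaptor p62. Loss of Atg5 and expression of Bcl-2 were therefore common to both groups, and no tumor received a treatment. The lines are described as isogenic. The labels give neither the age of the mice nor the number of clones, and do not say if each tumor grew in a mouse of its own. Limma p-values below therefore measure only the spread between these tumors, which may be technical. Nude mice lack most T cells but keep their skeletal muscle, vessels and innate immune cells, and a tumor sample can hold RNA of such host cells beside that of the injected cells.

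In skeletal muscle, force comes from myosin thick filaments sliding along actin thin filaments within the sarcomere. An electrical signal opens calcium channels, calcium binds troponin and uncovers the actin, and a pump returns the calcium to its store. Fibres differ in their myosin: fast fibres carry fast myosins, fast troponins and parvalbumin and rely largely on glycogen, whereas slow fibres carry slow isoforms and more mitochondria.

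Values are MAS5 signals, a linear brightness scaled by the authors: the 2% trimmed mean was 150.04 on all 4 arrays. Differences are on the log2(signal + 16) scale, which understates the change of dim genes. As a measure of what an unexpressed gene reads, 16 measured genes of eye, testis, pancreas and liver reached at most 17.9 on any of the 4 arrays. This is called the reference level below. It was chosen after the values were seen. The array medians lay between 57.7 and 60.9, and the ratio of 3' to 5' signal of Gapdh, which is higher in degraded RNA, lay between 0.707 and 0.740. The same ratio of Actb varied more, from 1.28 in EGFP tumor 2 to 1.55 in p62-EGFP tumor 2.

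The markers of the tissue separated single tumors, not the groups. Values of a gene are given first for EGFP tumor 1 and tumor 2 and, after "against", for p62-EGFP tumor 1 and tumor 2. Mylpf, the regulatory light chain of fast myosin, read 15.0 and 70.2 against 508.5 and 20.5. Atp2a1, the calcium pump of fast fibres, read 9.7 and 49.5 against 301.9 and 13.8. Ttn, the giant spring protein titin, read 4.7 and 43.2 against 262.9 and 6.1. All 3 were highest in p62-EGFP tumor 1, intermediate in EGFP tumor 2 and near or below the reference level in the other 2 tumors. The label of skeletal muscle was thus borne out by its markers in p62-EGFP tumor 1 and EGFP tumor 2, and not in EGFP tumor 1 or p62-EGFP tumor 2. In a bulk tumor, fewer cells of a type and less RNA per cell cannot be told apart.

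Most of the list was highest in the same tumor. Of the 33 genes, 32 lay above the reference level in p62-EGFP tumor 1, 16 in EGFP tumor 2, 5 in p62-EGFP tumor 2 and 4 in EGFP tumor 1. The shares of all genes above that level were not computed. The median signal of each array, 57.7 to 60.9, was above it, so being above it does not by itself set a gene apart. For 32 of the 33, p62-EGFP tumor 1 was the highest of the 4, as it was for 23.6% of all genes, and for 23 of them EGFP tumor 2 came second, against 4.45% of all genes. Among these 23, EGFP tumor 2 was itself below the reference level in Myh2, Tnni1, Cacna1s, Pvalb, Pgam2, Pygm, Ldb3, Sln and Myot. The second place is unreliable in those genes. In Actn3, Myh4, Tnnc1, Ryr1, Casq1 and Eno3 the second was p62-EGFP tumor 2, and in Tnnt1, Myoz1 and Trdn it was EGFP tumor 1 (below the reference level in all of these but Eno3 and Myoz1). Tpm2 was the one gene highest in another tumor. The summed signal of the 33 genes was 673 and 1460 against 7080 and 497.

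**Figure D1:**
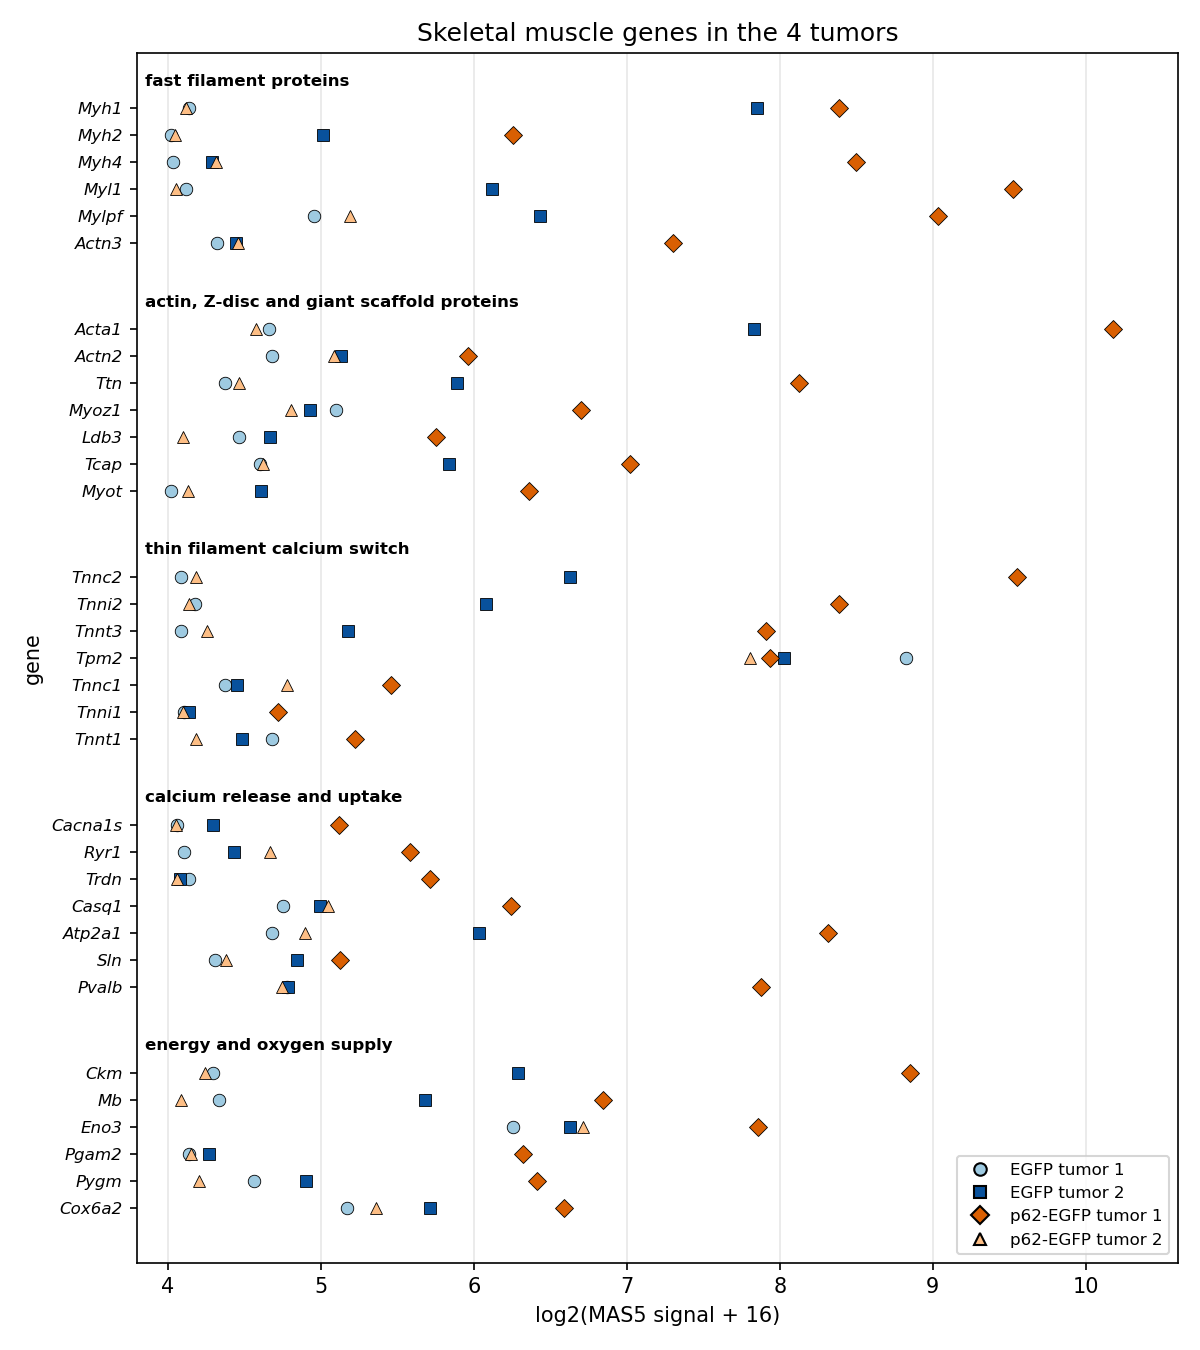
MAS5 signal of the 33 skeletal muscle genes on the log2(signal + 16) axis, with 1 point per tumor and genes grouped by role. The diamond of p62-EGFP tumor 1 lies rightmost for 32 genes, and the square of EGFP tumor 2 stands apart from the other 2 tumors for part of the genes, such as Acta1 and Myh1.

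Filament proteins of fast fibres were far higher in p62-EGFP tumor 1 than in p62-EGFP tumor 2. Myl1, an essential light chain of fast myosin, read 1.4 and 53.4 against 719.3 and 0.6. Its 2 p62-EGFP tumors differed by 5.47 on the log2 scale and its 2 EGFP tumors by 2.00. Actn3, the Z-disc actinin of fast fibres, read 4.0 and 5.8 against 141.8 and 6.0. It was bright in p62-EGFP tumor 1 alone, and in EGFP tumor 2 it was below the reference level.

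The heavy chains divided in EGFP tumor 2. Myh4, the heavy chain of the fastest fibres (type IIb), read 0.4 and 3.5 against 346.2 and 3.9. Myh1, the heavy chain of type IIx fibres, read 1.6 and 214.5 against 318.5 and 1.4. Myh2, that of type IIa fibres, read 0.2 and 16.3 against 60.3 and 0.5. EGFP tumor 2 thus held 67.4% of the Myh1 signal of p62-EGFP tumor 1. Its Myh4 signal was below the reference level, which itself would be 5.17% of that of p62-EGFP tumor 1, so the share of Myh4 is given only as at most 5.17%. Myh1 had 3 probe sets: a second one read 0.4, 206.1, 321.2 and 0.8 in the same order of tumors, and the third did not exceed 1.7 on any array. In the RefSeq gene order Myh2, Myh1 and Myh4 are direct neighbours, flanked by Myh3 and Myh8, the embryonic and neonatal heavy chains. Neither flanking gene followed them: Myh8 did not exceed 4.4 in any tumor, and Myh3 read 8.2, 5.8, 14.1 and 19.8. Sequence identity between Myh1, Myh2 and Myh4 was not computed, so how far a probe set of one also reads another is uncertain. In EGFP tumor 2, where the Myh1 probe set read 214.5, that of Myh4 read only 3.5.

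The bases before the start of 4 skeletal muscle genes are shown because these members moved together between tumors, except for the split of Myh1 and Myh4 in EGFP tumor 2. Each run is the 250 bases before the RefSeq start (GRCm38.p6), 5′ to 3′ on the strand of the gene, and capitals mark CAGCTG. This is a form of the E-box, the motif bound by MyoD and related factors. The windows are chr7:127211358-127211607 for Mylpf, chr7:19410844-19411093 for Ckm, chr11:67237562-67237811 for Myh4 and chr11:67199852-67200101 for Myh1, all on the plus strand.
Mylpf: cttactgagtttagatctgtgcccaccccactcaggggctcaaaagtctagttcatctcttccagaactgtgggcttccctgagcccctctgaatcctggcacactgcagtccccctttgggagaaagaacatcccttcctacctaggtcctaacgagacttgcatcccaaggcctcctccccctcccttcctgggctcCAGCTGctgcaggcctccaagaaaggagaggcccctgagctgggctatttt
Ckm: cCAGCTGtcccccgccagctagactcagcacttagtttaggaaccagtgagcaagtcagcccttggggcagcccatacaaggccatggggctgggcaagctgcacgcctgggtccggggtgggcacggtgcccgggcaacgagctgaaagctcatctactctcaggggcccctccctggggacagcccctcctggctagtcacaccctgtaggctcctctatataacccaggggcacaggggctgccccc
Myh4: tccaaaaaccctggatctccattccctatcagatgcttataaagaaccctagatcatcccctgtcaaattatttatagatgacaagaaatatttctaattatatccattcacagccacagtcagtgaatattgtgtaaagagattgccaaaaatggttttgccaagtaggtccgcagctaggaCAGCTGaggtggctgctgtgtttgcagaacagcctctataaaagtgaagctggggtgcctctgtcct
Myh1: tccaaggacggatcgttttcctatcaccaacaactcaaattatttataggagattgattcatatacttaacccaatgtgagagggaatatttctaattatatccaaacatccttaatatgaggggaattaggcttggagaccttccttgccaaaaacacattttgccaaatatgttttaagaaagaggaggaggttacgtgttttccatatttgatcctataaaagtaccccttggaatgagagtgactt
CAGCTG began 51 bases before the start in Mylpf, 249 before it in Ckm and 67 before it in Myh4, and these letters were not in the window of Myh1. RefSeq windows were at hand for 24 of the 33 measured genes. Of these, 13 held CAGCTG on either strand (which reads the same on both), or 54.2%, against 14.7% of all 27025 genes with a window. The looser E-box CANNTG, which includes CAGCTG, was in 20 of the 24, or 83.3%, against 69.3% of all genes. A match to the MEF2 motif on either strand was in 5 of the 24, among them Myh1 and Myh4, or 20.8%, against 3.4% of all genes. TATAAA on either strand was also in 5, or 20.8%, against 14.3%. These are counts of letters in the windows, and no binding was measured.

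Actin and the proteins that anchor it followed the same tumors. Acta1, skeletal muscle actin, read 9.3 and 212.1 against 1141 and 7.9. Its difference of 5.60 between the p62-EGFP tumors was the largest of all genes with the pseudocounts of 16 and 64 (ranks that were added after seeing the data). With a pseudocount of 1 it ranked 4 and Myl1 was first. Both genes were below the reference level in p62-EGFP tumor 2, so the exact size of these differences is uncertain. Tcap, which caps titin at the Z-disc, read 8.3 and 41.3 against 114.1 and 8.6. Acta1 and Tcap were thus above the reference level in EGFP tumor 2 as well. Other Z-disc genes did not stand above the reference level in EGFP tumor 2, or barely so. Myot (myotilin) read 0.2 and 8.4 against 66.3 and 1.5, and Ldb3, a PDZ-LIM scaffold, 6.1 and 9.4 against 37.9 and 1.1, both above the reference level in p62-EGFP tumor 1 only. Myoz1, a calcineurin-binding protein, read 18.3 and 14.5 against 87.9 and 12.0, so its level in EGFP tumor 1 was also marginally above the reference. Actn2, the actinin shared by all striated fibres, read 9.6 and 19.0 against 46.2 and 18.0, only marginally above the reference level in EGFP tumor 2 and p62-EGFP tumor 2.

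The troponins switch the thin filament on with calcium. The fast calcium sensor Tnnc2 read 1.0 and 83.1 against 735.0 and 2.2. Tnni2, the fast inhibitory subunit, read 2.1 and 51.5 against 318.6 and 1.6, and Tnnt3, the fast tropomyosin-binding subunit, 1.0 and 20.2 against 224.1 and 3.1. All 3 fast troponins were above the reference level in EGFP tumor 2. Of the slow subunits none was above it there. Tnnc1 read 4.7 and 5.9 against 28.0 and 11.4, Tnnt1 9.6 and 6.4 against 21.4 and 2.2, and Tnni1 stayed below the reference level in all tumors (1.2 and 1.6 against 10.4 and 1.1). The differences between the p62-EGFP tumors were 3.65 to 5.37 on the log2 scale for the 3 fast subunits. Those of the slow subunits, 0.63 to 1.04, are compressed by the pseudocount because their signals are near the reference level. Probe sets also differ in brightness, so fast and slow subunits are not compared.

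Tpm2, beta-tropomyosin, lines the thin filament and is also made by smooth muscle and other cells. It read 437.7 and 245.1 against 229.0 and 208.0. It was the one member below both EGFP tumors in both p62-EGFP tumors (log2 difference -0.56, SE 0.29), and the difference did not pass (limma, Benjamini-Hochberg adjusted p = 0.426). Without EGFP tumor 2 it did pass (log2 difference -0.95, limma adjusted p = 0.00889). In that fit the lone EGFP tumor is assumed to vary like the p62-EGFP pair, and 5.15% of the 13576 probe sets passed as higher and 4.38% as lower. Of its 4 probe sets, a dimmer one was highest in p62-EGFP tumor 1, at 38.2 and 29.4 against 73.4 and 25.9.

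Genes of calcium release and uptake other than Atp2a1 were above the reference level in p62-EGFP tumor 1 alone, some of them only marginally. Pvalb, the calcium buffer parvalbumin of fast fibres, read 11.4 and 11.6 against 219.4 and 10.8. Casq1, the calcium store protein calsequestrin, read 11.0 and 15.9 against 59.9 and 17.0. Trdn (triadin), which ties calsequestrin to the release channel, read 1.6 and 0.9 against 36.5 and 0.7. In all 3, EGFP tumor 2 stayed below the reference level. Of 6 Trdn probe sets, 2 exceeded the reference level in p62-EGFP tumor 1 (36.5 and 27.5) and 4 did not exceed 10.0 in any tumor. The channels themselves were above the reference level in p62-EGFP tumor 1 only. Ryr1, the calcium release channel, read 1.2 and 5.6 against 32.0 and 9.4. Cacna1s, its voltage sensor, read 0.7 and 3.6 against 18.7 and 0.6, only marginally above that level. Sln (sarcolipin), an inhibitor of the calcium pump, read 3.8 and 12.7 against 18.9 and 4.8, also only marginally above it in p62-EGFP tumor 1.

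Energy supply genes were all highest in p62-EGFP tumor 1 as well. Ckm, muscle creatine kinase, read 3.6 and 62.2 against 445.7 and 2.9. Mb, the oxygen store myoglobin, read 4.2 and 35.3 against 98.9 and 1.0. Pygm, muscle glycogen phosphorylase, read 7.6 and 13.9 against 69.4 and 2.4. Ckm and Mb were above the reference level in EGFP tumor 2, and Pygm was not. Pgam2, the muscle phosphoglycerate mutase, was above it in p62-EGFP tumor 1 alone (1.6 and 3.3 against 64.1 and 1.8). Eno3, the muscle enolase, and Cox6a2, a muscle subunit of cytochrome c oxidase, were above it in every tumor: Eno3 read 60.3 and 83.1 against 216.2 and 89.1, and Cox6a2 20.1 and 36.5 against 80.4 and 25.0. In Eno3 the second highest was thus p62-EGFP tumor 2.

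Between the 2 p62-EGFP tumors, the muscle genes were the majority of the genes that stood 2-fold higher in tumor 1. Of the 33 genes, 27 were at least 2-fold higher in tumor 1 than in tumor 2, and 0 were 2-fold lower. Of all 12393 genes, 0.403% were at least 2-fold higher and 0.323% at least 2-fold lower. The 27 were 81.8% of the muscle genes and 54.0% of the 50 genes that were 2-fold higher. Of the 20 genes with the largest differences toward tumor 1, 19 were muscle genes of the list, and of the 20 largest by size in either direction 17 were. In all, 90 genes differed 2-fold in either direction. The median difference was 2.21 on the log2 scale, or 4.64-fold, against -0.01 over all genes, whose differences between these tumors had an SD of 0.300. Just inside the 2-fold threshold were Tnnt1 (1.04), Cacna1s (1.06) and Eno3 (1.14), and just outside it Ryr1 (0.92) and Actn2 (0.87). The comparison is of 1 tumor with 1 tumor and has no replicate check.

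**Figure D2:**
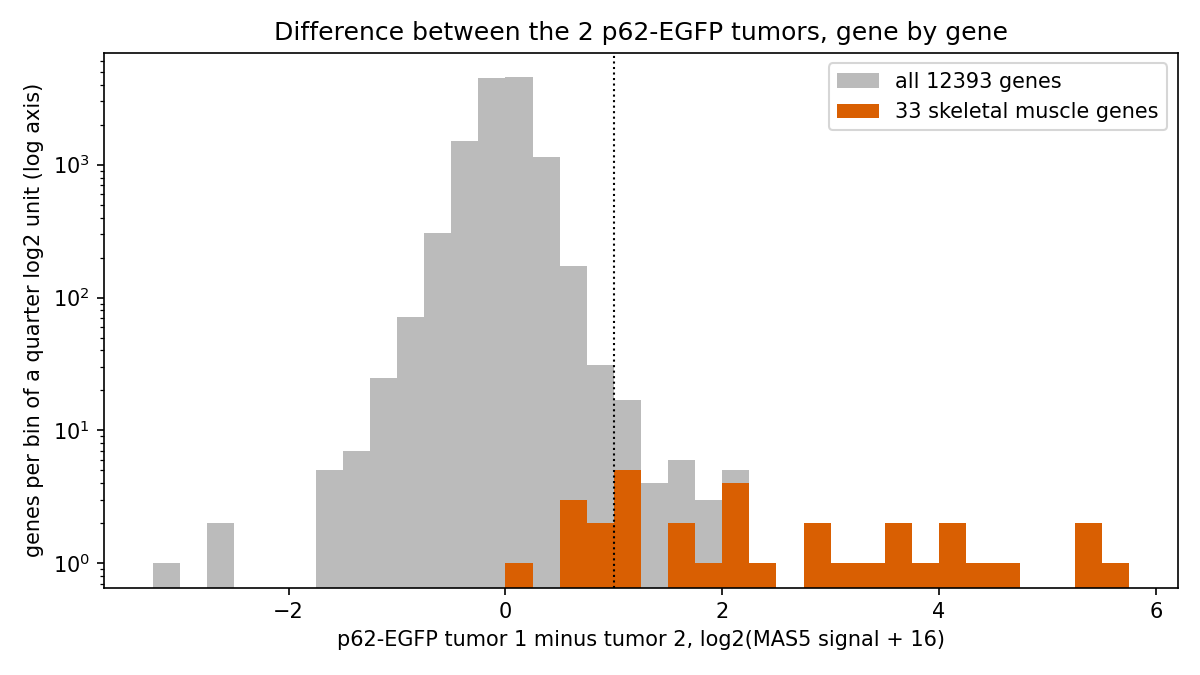
Difference between p62-EGFP tumors 1 and 2 for all 12393 genes (grey) and the 33 skeletal muscle genes (orange), with the number of genes on a log axis and a dotted line at 2-fold. Of the muscle genes, 27 lie at or right of the line, and 19 of them are among the 20 genes with the largest differences to the right, toward tumor 1.

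Of the 23 other genes 2-fold higher in p62-EGFP tumor 1 than in tumor 2, 12 were on the lists of other muscle genes, 2 on other lists and 9 on no list. The 12 included Smpx, a small muscle protein (58.9 in p62-EGFP tumor 1 and 3.9 in p62-EGFP tumor 2), Csrp3, a muscle LIM protein (63.9 and 7.4), and Ckmt2, mitochondrial creatine kinase (35.1 and 1.0). Smpx, Csrp3 and Ckmt2 read 16.3, 17.8 and 7.2 in EGFP tumor 2. The slow myosin genes were among them too: Myh7, the slow heavy chain, read 33.2 and 1.6, and Myl2, its regulatory light chain, 45.5 and 6.1, with 2.2 and 0.8 in EGFP tumor 2. The 9 on no list, named after their values were seen, were Cmya5, Tank, Apobec2, Gpx3, Asb5, Med17, Eef1a2, Zfp931 and Slc15a2. Cmya5, a muscle costamere protein, read 1.4 and 18.7 against 57.5 and 1.9.

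Outside all lists, genes bright enough for the test were ranked by how far p62-EGFP tumor 1 exceeded the other 3 tumors. The muscle genes were not held to that limit, and only 12 of the 33 met it, so the 2 sets are not compared. Cmya5 and Slc15a2, which did not meet it, exceeded the next tumor by 1.083 and 1.005 on the log2 scale. Zfp931 (77.5 and 47.3 against 172.4 and 75.1) exceeded the next tumor by 1.01 on the log2 scale, and Eef1a2, the translation factor isoform of muscle and neurons, by 0.93 (49.3 and 31.1 against 108.4 and 44.1). The next 8, Pcdh10, Sox2, Slit2, Terf1, Adcy2, Usp53, Med17 and Rsph9, exceeded it by 0.83 down to 0.59. Among all 12393 genes, 33 (0.266%) were at least 2-fold above each of the other 3 tumors, and 23 of these were muscle genes of the list.

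EGFP tumor 2 carried a smaller muscle signal. Of the 33 genes, 12 were at least 2-fold higher there than in EGFP tumor 1 and 0 were 2-fold lower, with 5.27% and 1.24% of all genes beyond these limits. The median difference was 0.45, against -0.03 over all genes, whose SD was 0.610. The largest were those of Myh1 (3.71), Acta1 (3.17) and Tnnc2 (2.54).

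The share of the p62-EGFP tumor 1 signal that was seen in EGFP tumor 2 varied from gene to gene. For 26 genes p62-EGFP tumor 1 was above the reference level while EGFP tumor 1 and p62-EGFP tumor 2 were not. In EGFP tumor 2, 11 of the 26 were above that level, at 7.42% (Myl1) to 67.4% (Myh1) of their signal in p62-EGFP tumor 1, with a median of 16.4%. The other 15 were not above it in EGFP tumor 2 and were left out, so this range and median are not those of all 26. Titin and the calcium pump Atp2a1 stood at that median, at 16.4% each, and Mb (35.7%) and Tcap (36.2%) stood above it. Myh4, at most 5.17%, was below the range, but the split of signal between the probe sets of Myh1 and Myh4 is uncertain. Pvalb and Actn3 were at most 8.16% and 12.6% by the same limit, so a share like that of Myl1 was not detectable for them. The shares compare 1 tumor with 1 tumor and were not tested.

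**Figure D3:**
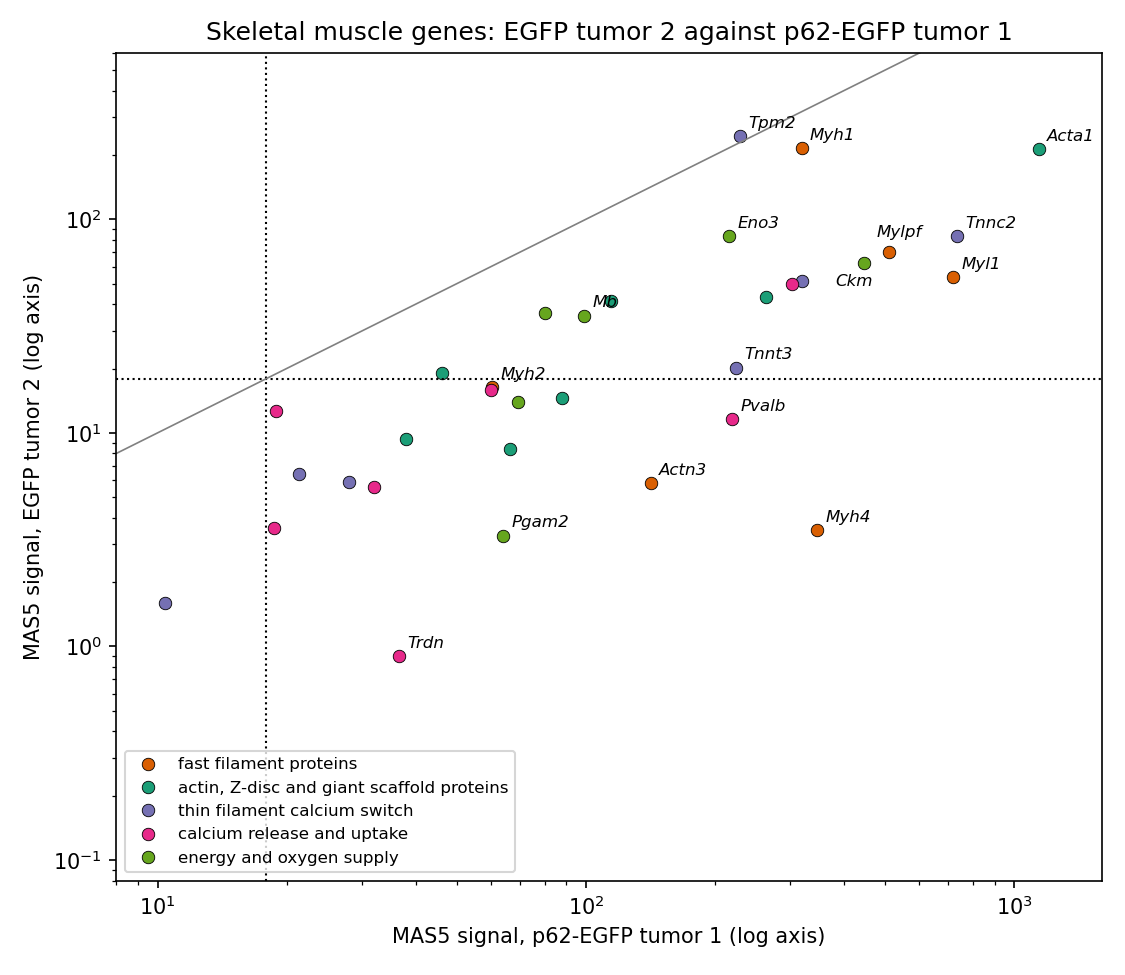
MAS5 signal of the 33 skeletal muscle genes in EGFP tumor 2 against p62-EGFP tumor 1, both on log axes and coloured by role; the solid line marks equal signals and the dotted lines the reference level of 17.9. Myh1 (214.5 and 318.5) lies near equality, and Myh4 (3.5 and 346.2) far below it.

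The study's own contrast, p62-EGFP over EGFP, asks what extra p62 changes in tumors of Atg5-null cells. For the muscle genes this contrast was dominated by the spread within groups. The list had a median log2 difference of 0.78, ranging from -0.56 (Tpm2) to 2.25 (Myh4), against 0.03 over all genes. Without p62-EGFP tumor 1 the median turned to -0.38, and without p62-EGFP tumor 2 it was 1.80. Without EGFP tumor 1 or EGFP tumor 2 it was 0.41 and 1.13. With p62-EGFP tumor 1 left out, 26 of the 33 genes were lower in the remaining p62-EGFP tumor, whereas 32 were higher with all 4 tumors. The shares of all genes with these signs were not computed. Some of the 26 differences were small and in genes below the reference level in the remaining tumors, such as Pvalb (-0.04) and Trdn (-0.05). The median difference between the 2 p62-EGFP tumors, 2.21, exceeded that between the groups.

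Only 12 of the 33 genes were bright enough on average to be tested, and 3 of these 12 without p62-EGFP tumor 1, so their number says nothing of a difference between the groups. None passed in either direction (limma, Benjamini-Hochberg adjusted p from 0.399 for Eno3 to 0.955 for Myh1), and 0 had an unadjusted p under 0.05. Over all 13576 probe sets tested, 0.0589% passed as higher and 0.0295% as lower, and 14.5% had an unadjusted p under 0.05. Acta1 averaged 111 ± 143 with EGFP and 575 ± 802 with p62-EGFP (SD, n = 2 each), a log2 difference of 1.13 (SE 1.98, limma adjusted p = 0.809). Mylpf averaged 42.6 ± 39.0 and 264.5 ± 345, a difference of 1.42 (SE 1.27, limma adjusted p = 0.624). In both, the SD was close to the mean or larger. Eno3 had the smallest p of the list: it averaged 71.7 ± 16.1 and 153 ± 89.9, a difference of 0.85 (SE 0.40, limma adjusted p = 0.399). The p62-EGFP tumors both lay above the EGFP tumors for 6 of the 33 genes, Actn3, Myh4, Tnnc1, Ryr1, Casq1 and Eno3, and both below for 1, against 26.8% and 18.0% of all genes.

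Other cell types moved beside the muscle genes in part. Counts of a list at least 2-fold higher or lower in p62-EGFP tumor 1 than in tumor 2 are set beside 0.403% higher and 0.323% lower of all genes, so that a count of 0 is near this background. Of 15 measured myogenic regulators and satellite cell genes, 0 differed 2-fold. Myod1, Myog, Myf5, Myf6 and Pax7 stayed below the reference level in all tumors, at most 13.9 (Myog in p62-EGFP tumor 1). Chodl, the gene of that list that differed most between the p62-EGFP tumors, read 6.2 and 27.1 against 35.8 and 15.8, above the reference level in the same 2 tumors as the muscle genes. Of 13 smooth muscle genes 0 differed 2-fold, and their summed signals were 421 and 539 against 594 and 606. Of the 13 slow fibre and cardiac-shared genes, 2 were 2-fold higher (Myh7 and Myl2) and 0 lower. Cardiac Myh6, Tnnt2, Nppa, Nppb and Myl7 of that list were below the reference level in all 4 tumors, whereas Tnni3, cardiac troponin I, read 48.4 and 23.4 against 16.7 and 19.4, lowest in p62-EGFP tumor 1. Myl3, the slow essential light chain, reached 18.0 in p62-EGFP tumor 1, and Actc1, cardiac actin, 18.1 in p62-EGFP tumor 2, both only marginally above the reference level. Of the other muscle lists, 8 of 24 sarcomere and Z-disc genes, 0 of 23 membrane and excitation-contraction genes, 2 of 21 energy genes and 0 of 8 embryonic and neonatal genes were 2-fold higher, and 0 of these were 2-fold lower. In the comparison of the groups, 0 of the tested genes on any of these lists passed in either direction (limma, adjusted p over 0.05).

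Host and tumor cell markers gave other orders. The 8 leukocyte genes summed to 843 and 7274 against 1553 and 1655, so EGFP tumor 2 was high in both leukocyte and muscle transcripts and p62-EGFP tumor 1 in muscle transcripts only. Adipocyte genes summed to 1100 and 2320 against 1572 and 1555. Of the 12 measured, 1 (Car3) was 2-fold higher in p62-EGFP tumor 1 than in tumor 2. Another 2 (Fabp4 and Adipoq) were 2-fold lower, beside 0.403% higher and 0.323% lower of all genes. Fabp4 read 698.9 and 1304 against 219.8 and 691.1, lowest in p62-EGFP tumor 1. Adipoq, the fat cell hormone adiponectin, was highest in p62-EGFP tumor 2 (5.5 and 8.8 against 11.3 and 63.7). Car3, a carbonic anhydrase of fat and muscle, read 4.1 and 120.7 against 794.2 and 279.2. Its 2 p62-EGFP tumors were both above the EGFP tumors, and it did not pass (log2 difference 3.22, SE 0.97, limma adjusted p = 0.266). Car3 made up 794.2 of the 1572 summed in p62-EGFP tumor 1, so that sum does not stand for fat genes alone. Epithelial genes summed to 2440 and 1273 against 2153 and 2929, lower in each group in the tumor with the larger muscle signal. This order of the sums did not hold for every gene. Of the 10 genes, 2 were 2-fold lower in p62-EGFP tumor 1 than in tumor 2, beside 0.323% of all genes. In EGFP tumor 2, 4 were 2-fold lower than in EGFP tumor 1, beside 1.24%. Krt19 went the other way in the EGFP tumors and hardly differed between the p62-EGFP tumors (93.6 and 156.2 against 332.9 and 341.3). Cdh1, the adherens junction protein E-cadherin, read 134.3 and 86.8 against 89.7 and 221.2, and Krt8, a keratin of simple epithelia, 136.6 and 80.5 against 101.3 and 239.2. The part of the leukocyte and epithelial differences in the muscle values was not tested.

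**Figure D4:**
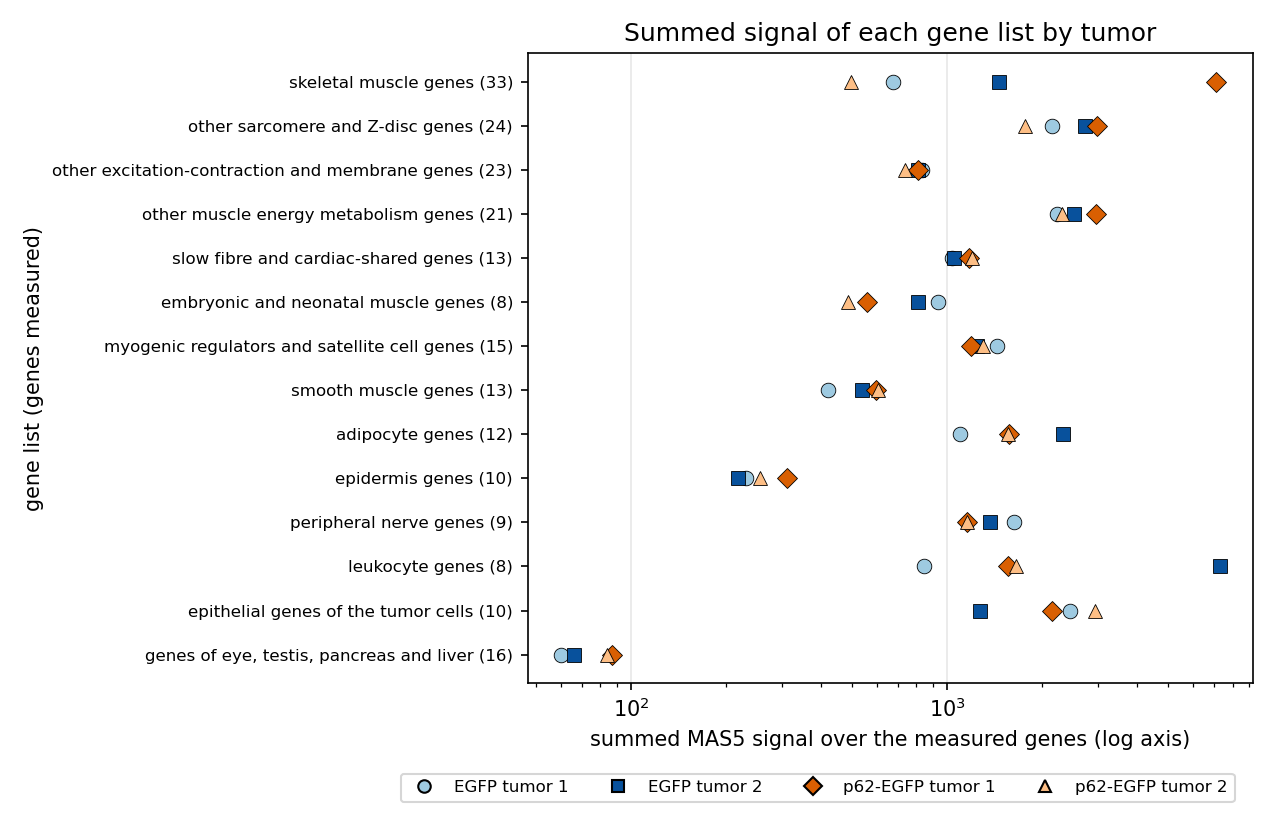
Summed MAS5 signal over the measured genes of each list, on a log axis, with 1 point per tumor and the number of genes in brackets. The skeletal muscle list spans 497 to 7080 with p62-EGFP tumor 1 highest, and the leukocyte list spans 843 to 7274 with EGFP tumor 2 highest.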

How the data were processed

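RNA of 4 tumors (2 EGFP, 2 p62-EGFP) was hybridized to 1-colour Affymetrix Mouse Genome 430A 2.0 arrays. Each value the authors deposited is a linear signal intensity of a probe set, and MAS5 is the tool in the submitters' processing notes; version and settings are not given in the sources used here. They were used as deposited, since the trimmed means were equal. Of 22690 probe sets, 64 controls were left out; 20380 of the rest had 1 gene symbol, 691 several and 1555 none in the array annotation. No build is given for the array values. All 33 measured genes matched the RefSeq table (GRCm38.p6), and 24 had a promoter sequence there.

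Groups were compared on log2(signal + 16) by limma 3.58.1 (R 4.3.3; lmFit, then eBayes with a mean-variance trend; two-sided). Probe sets whose mean fell below the 40th percentile, 5.60, were left out, and p-values of the other 13576 were adjusted by Benjamini-Hochberg (threshold 0.05). The fit was tested on simulated data. Differences between 2 single tumors have no test. Alternatives were quantile normalization, median centring, a pseudocount of 1 or 64, no filter or the 60th percentile, no trend, a replicate block, each tumor left out in turn, and a gene's probe sets averaged. The members and lists were chosen with earlier results of these data known. The genes named are the members and genes among the up to 4 of each other list that differed most between the p62-EGFP tumors. Also named are 10 genes outside the lists, at or above the 40th percentile, that most exceeded the other tumors in p62-EGFP tumor 1. Others are named as examples after their values were seen. The 4 arrays limit the precision, with 2 residual degrees of freedom. Python 3.11.15, pandas 2.3.3, numpy 2.4.6 and matplotlib 3.10.9 were used for counts and figures.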

Additional observations from a re-analysis of the deposited data

How the results depend on the processing

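p62-EGFP tumor 1 was highest for 32 of 33 muscle genes also under quantile normalization, median centring and the mean over probe sets; another pseudocount cannot change which tumor is highest, and which tumor came second was not recomputed. The 27 genes at least 2-fold higher there than in p62-EGFP tumor 2 became 16 with a pseudocount of 64, which compresses dim genes by construction. The median difference between these tumors of 2.21 became 4.355 with a pseudocount of 1 and 0.9991 with a pseudocount of 64. Leaving out single tumors turned the group difference of Acta1, which ranged from -1.67 to 3.93, and of Myh1, from -1.59 to 2.39 in the fits that tested it and down to -1.87 without p62-EGFP tumor 1, where it fell below the filter. Over all 33 genes, with no filter (chosen after seeing the data), 26 were lower with p62-EGFP without that tumor and 6 without EGFP tumor 1, against 1 with all 4 tumors. The shares of all genes with these signs were not computed. Over all probe sets, 8 passed as higher and 4 as lower. The 8 became 4 with a pseudocount of 1, 3 with no filter and 4 with the filter at the 60th percentile; the cause was not tested. Without single tumors the counts ranged from 0 to 1513 higher and from 0 to 1322 lower. The labels number the tumors of both groups 1 and 2 and do not say what the number means. Same-numbered tumors deviated together only weakly (r = 0.08 across 13576 probe sets, which are not independent). This correlation cannot show whether same-numbered tumors were paired, so a pairing remains unknown. A fit with the replicate block passed 14 probe sets as higher and 23 as lower, and 0 of the 12 tested muscle genes. The stricter filter left 2 of these 12 in the test and the pseudocount of 1 left 6. Dim genes near the reference level have no reliable order between tumors.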
